A study of Mus musculus with 14 samples.

Results

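Complement, leukocyte adhesion and the reactive state of astrocytes were followed through 9 genes out of 29713 genes counted. They were C3, C4b, Serping1, Vcam1, Icam1, Lcn2, Serpina3n, Ccl2 and Tlr4, chosen by name with earlier results of these data known. RNA came from cultured neural stem cells (NSC) of OG2 mice, a strain with a reporter transgene for Pou5f1, and each gene was read as an estimated count and as TPM (transcripts per 1000000 transcripts, a level per length) in 14 libraries. At passage 8, 12 libraries paired 4 stages with 3 treatments: undifferentiated NSC and NSC differentiated for 2, 4 or 8 days, each with naloxone, an antagonist of opioid receptors, with DAMGO, a peptide agonist of the mu opioid receptor, or as a control labelled NC. Another 2 libraries came from undifferentiated NSC at passage 13 and passage 8 without a named treatment. Every condition had 1 library, nothing in the labels marks a library as a separate animal, and the labels name no dose, vehicle or differentiation medium.

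Complement is a proteolytic cascade of blood and tissue fluid. Of the proteases C1r and C1s, C1s cleaves C4 and C2. The product cleaves C3, and fragments of C4 and C3 stay bound to the surface where they are made. Serping1 encodes the C1 inhibitor, a serpin that blocks C1r and C1s. Astrocytes are a source of C3 and C4 in the brain, and astrocytes that react to injury or lipopolysaccharide are known for raised C3, Serpina3n (a secreted serine protease inhibitor) and Lcn2 (lipocalin, a secreted protein that binds iron-carrying siderophores). Tlr4 is the receptor for lipopolysaccharide and acts through NF-kappaB, a transcription factor with known target genes among adhesion molecules and chemokines, including Vcam1, Icam1 and Ccl2.

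The RefSeq promoter table (GRCm38.p6) holds windows of 300 bases for 4 of the 9 genes, C3, Serpina3n, Lcn2 and Icam1. All 4 are shown, since no other member has a window there. C3 and Serpina3n rose at day 8, while Lcn2 and Icam1 stayed near the detection limit. The 250 bases before the annotated start are printed on the strand of the gene, at chr17:57228137-57228386 (minus strand) for C3, chr12:104406458-104406707 (plus strand) for Serpina3n, chr2:32387740-32387989 (minus strand) for Lcn2 and chr9:21015690-21015939 (plus strand) for Icam1. Capitals mark matches to 3 motifs searched on both strands of the whole windows: GGNNTTTCC, a form of the NF-kappaB site, TTCNNNGAA, a form of the STAT site, and TTGCNNAA, a form of the C/EBP site.
C3: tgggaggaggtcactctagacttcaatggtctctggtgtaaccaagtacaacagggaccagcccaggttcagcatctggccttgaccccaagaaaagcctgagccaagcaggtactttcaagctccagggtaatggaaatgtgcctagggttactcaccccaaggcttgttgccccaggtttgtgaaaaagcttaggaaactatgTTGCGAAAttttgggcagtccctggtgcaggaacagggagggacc
Serpina3n: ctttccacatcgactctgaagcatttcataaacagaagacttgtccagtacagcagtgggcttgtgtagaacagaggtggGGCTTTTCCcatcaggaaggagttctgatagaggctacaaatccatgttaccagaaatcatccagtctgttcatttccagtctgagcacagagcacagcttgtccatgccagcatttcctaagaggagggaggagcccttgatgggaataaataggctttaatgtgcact
Lcn2: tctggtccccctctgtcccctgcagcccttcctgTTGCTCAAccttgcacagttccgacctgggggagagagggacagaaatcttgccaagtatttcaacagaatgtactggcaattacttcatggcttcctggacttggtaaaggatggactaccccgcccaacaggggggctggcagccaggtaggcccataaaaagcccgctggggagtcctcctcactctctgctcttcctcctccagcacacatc
Icam1: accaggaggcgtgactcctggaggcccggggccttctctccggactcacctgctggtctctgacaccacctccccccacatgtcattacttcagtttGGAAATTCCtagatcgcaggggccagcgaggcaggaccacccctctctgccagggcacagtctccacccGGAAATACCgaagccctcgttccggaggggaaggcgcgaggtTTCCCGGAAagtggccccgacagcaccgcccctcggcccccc
C3 held the C/EBP form at position -45 from the RefSeq start, and Lcn2 held it at -216. The Lcn2 stretch lies inside the gene position given below, which comes from another annotation, GENCODE M21, with a start further upstream. Serpina3n held the NF-kappaB form at -170. Icam1 held the NF-kappaB form on the minus strand at -153 and -84, and the STAT form, which reads the same on both strands, at -42. No match overlapped another. Among the 32851 promoters of the table, the NF-kappaB form occurred in 5.82%, the STAT form in 8.30% and the C/EBP form in 10.8%, so each of these matches describes letters that many promoters share.

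The libraries held 4143030 to 9070533 estimated counts. CPM, used below, stands for counts per 1000000 of the library total after TMM scaling. On that scale 3 counts were worth 0.354 to 0.692 CPM, depending on the library. Astrocyte markers were higher after differentiation: 12 of 12 had counts at every stage, and their summed level was 35562 to 37471 CPM at day 8, against 1478 to 1545 CPM in undifferentiated cells. The 11 markers of neural stem and progenitor cells summed to 1832 to 2020 CPM at day 8, against 6891 to 7171 CPM in undifferentiated cells, but they did not move as 1 group. Means were lower at day 8 for 6 of them, with Nes at 268 CPM against 1804 CPM and Mki67 at 1.10 CPM against 1311 CPM, and higher for 5 (Sox2, Sox1, Pax6, Msi1 and Prom1), with Msi1 at 205 CPM against 36.7 CPM. Of 14 microglia and macrophage markers, Cx3cr1, Trem2, C1qa, C1qb and C1qc had no count in any library. The 9 endothelial markers summed to 16.9 to 24.9 CPM at day 8, against 2.84 to 4.50 CPM in undifferentiated cells, with Cdh5 and Cldn5 at 0 and Kdr at 20.6 CPM on average at day 8. Mesenchyme and pericyte markers, 10 genes, summed to 168 to 203 CPM at day 8 and 172 to 202 CPM in undifferentiated cells, a sum that holds opposite moves. Pdgfrb averaged 97.8 CPM at day 8 against 0.366 CPM in undifferentiated cells and Acta2 33.4 CPM against 2.87 CPM, while Cspg4 averaged 49.5 CPM against 187 CPM. In bulk RNA more cells of a type and more RNA per cell cannot be told apart, and how far the makeup of the cultures enters the levels below was not tested.

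**Figure D1:**
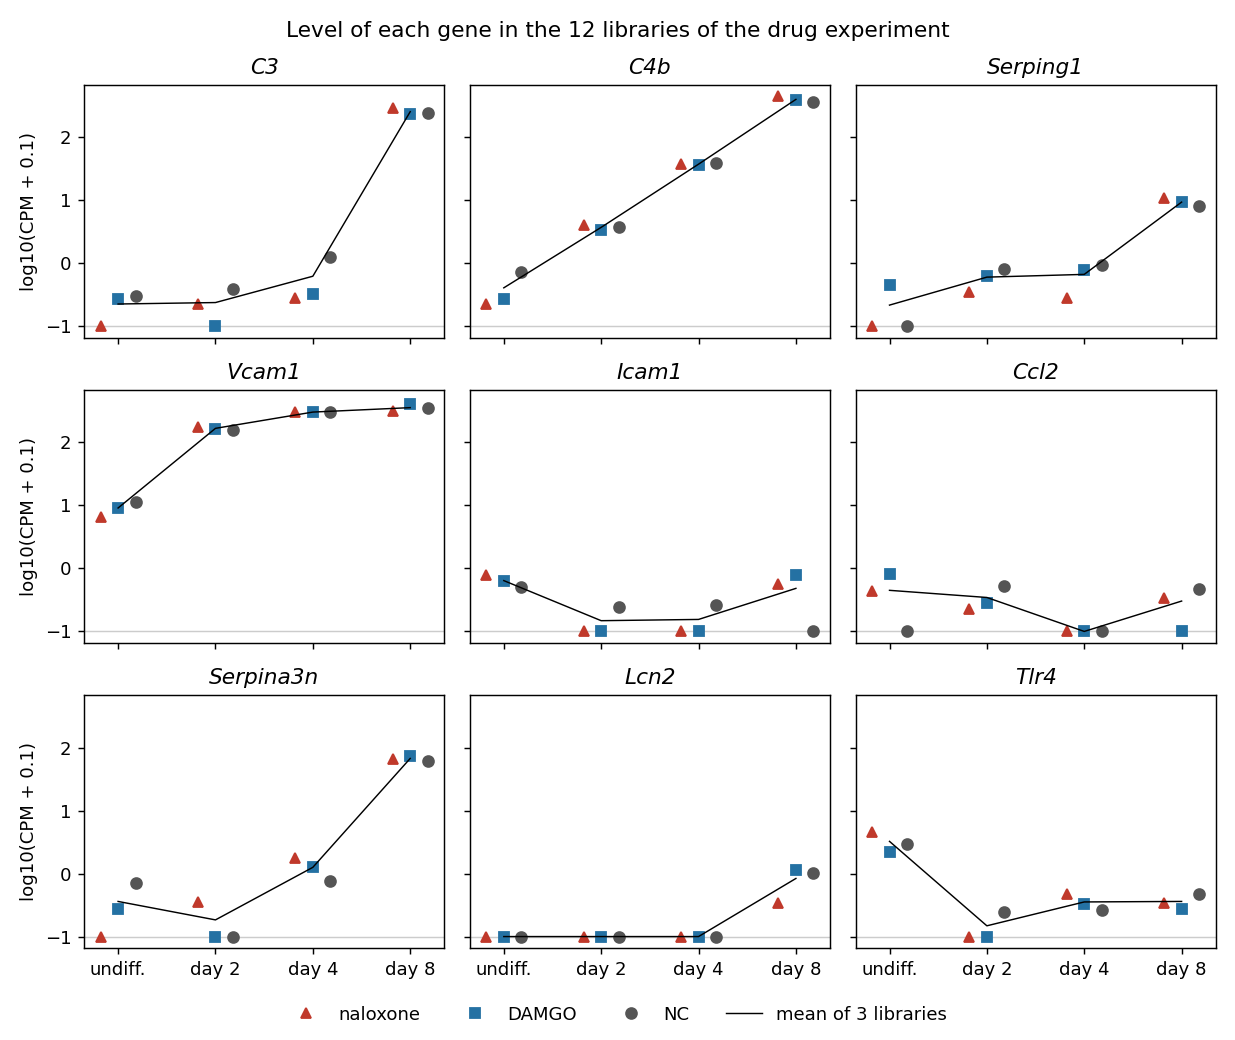
Level of each of the 9 genes as log10(CPM + 0.1), by stage, in the 12 libraries of the drug experiment (triangles, naloxone; squares, DAMGO; circles, NC; line, mean of the 3 libraries of a stage; the grey line marks a count of 0). By stage mean in CPM, C3, C4b, Serping1, Vcam1 and Serpina3n are highest at day 8 and Tlr4 is highest in undifferentiated cells. Icam1, Lcn2 and Ccl2 stay near 0 throughout.

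By day 8 the cells carried high levels of C3, C4b, Vcam1 and Serpina3n mRNA and a lower level of Serping1, whereas Tlr4 mRNA was down to 1 or 2 counts per library. Against undifferentiated cells, 5 of the 9 genes rose and 1 fell. Of all 13144 genes tested, 41.6% rose and 38.5% fell in that comparison, so a change as such sets no gene apart. The 5 rises spanned log2 changes of 5.32 to 10.81, and the median over all genes was 0.05. Because the 9 genes were chosen with earlier results of these data known, the size of the rises describes these genes and tests nothing. Icam1, Lcn2 and Ccl2 did not pass the filter on low counts, which left 6 members tested. Since the filter keeps a gene that is counted at a single stage, C3, Serping1 and Serpina3n could pass only by being high at day 8. Tlr4, the fall, could likewise pass only through its counts in undifferentiated cells. The spread behind these tests comes from the stage-by-treatment residual, and the p-values weigh each stage difference against it. The 3 libraries of a stage had 3 different treatments and were not replicates. Their residual therefore mixes noise between libraries, which may be technical, with stage-specific effects of the drugs.

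C3 encodes the central component at which all complement pathways meet, and it appeared between day 4 and day 8. Its gene lies at chr17:57203970-57228136 on the minus strand (mm10). In the naloxone, DAMGO and NC libraries, undifferentiated cells had 0, 1 and 1 counts of C3, and day 2 cells had 1, 0 and 2. Day 4 cells had 1, 1 and 7 counts, and day 8 cells had 2441, 1345 and 1312. All 3 day 8 libraries stood far above the other 9 of the drug experiment, among which the largest value was the 7 counts of day 4 NC cells. The mean was 255 ± 29.0 CPM at day 8 and 0.126 ± 0.110 CPM in undifferentiated cells (SD over 3 libraries, as for all stage means). The pooled counts give a ratio of 2135 for day 8 over undifferentiated cells, with a 95% counting interval of 591 to 17634, and a ratio of 457 for day 8 over day 4 (241 to 1001). The fitted log2 change was 10.81 ± 0.36 (SE) against undifferentiated cells (adjusted p = 1.67e-09) and 8.78 ± 0.31 against day 4 (adjusted p = 2.00e-08). Day 4 over undifferentiated cells was not past the threshold of 0.05 (log2 change 2.03 ± 0.99, adjusted p = 0.0998). That call rests on single libraries. It was made without the day 4 naloxone library (2.52, adjusted p = 0.0412) and with the passage 8 library added as an NC library (2.42, adjusted p = 0.0442), and the change was 0.64 (adjusted p = 0.692) without the day 4 NC library, which holds 7 of the 9 day 4 counts. The day 8 changes stayed past the threshold with any library left out. The one against undifferentiated cells was 10.19 without the undifferentiated naloxone library and 11.75 without the day 8 NC library, and the one against day 4 was 10.17 without the day 4 NC library and 9.89 without the day 8 NC library.

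C4b encodes complement C4, the substrate of C1s, and unlike C3 it climbed at every step. The gene lies at chr17:34728380-34743882 on the minus strand. Undifferentiated cells had 0.75, 1 and 3.06 counts in the naloxone, DAMGO and NC libraries, and day 2 cells had 31.0, 18.5 and 25.3. Day 4 cells had 201.3, 158 and 235 counts, and day 8 cells had 3781, 2279 and 1927. No library of a stage overlapped any library of another stage in CPM. The undifferentiated mean was 0.308 ± 0.271 CPM, followed by means of 3.62 ± 0.292 (day 2), 37.4 ± 1.27 (day 4) and 400.4 ± 42.9 CPM (day 8). Each of the last 2 steps was close to 10-fold, with a pooled ratio of 10.2 for day 4 over day 2 (95% counting interval 8.04 to 13.2) and 10.9 for day 8 over day 4 (9.99 to 11.8). C4b rose by a log2 change of 3.49 ± 0.33 at day 2 (adjusted p = 6.84e-06), 6.85 ± 0.23 at day 4 and 10.26 ± 0.20 at day 8 (adjusted p = 8.56e-11), all against undifferentiated cells. It also rose at day 4 against day 2 (3.35 ± 0.14, adjusted p = 2.58e-07) and at day 8 against day 4 (3.41 ± 0.11, adjusted p = 1.59e-08). Without the undifferentiated NC library, which holds 3.06 of the undifferentiated counts, the changes against undifferentiated cells were 4.26 at day 2, 7.61 at day 4 and 11.03 at day 8.

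The neighbouring gene C4a, at chr17:34809092-34823464, is a near copy, and reads that fit both genes are divided by RSEM. Over 5367 aligned bases the main transcripts of both genes were 96.1% identical, and 35.2% of the 50-base windows of C4b occurred unchanged in C4a. C4a received little: 3.53 ± 0.713 CPM at day 8 and 1.23 ± 0.164 CPM in undifferentiated cells. Per length, C4b had 0.113 ± 0.101 TPM and C4a 2.53 ± 0.515 TPM in undifferentiated cells. At day 2 the levels overlapped, with C4b at 1.65 ± 0.306 TPM and C4a at 1.62 ± 1.03 TPM, and from day 4 on C4b was the higher in every library. How the shared reads of the pair were divided is uncertain, most of all in undifferentiated and day 2 cells, where both had few.

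Serping1, the inhibitor of C1r and C1s at the head of the cascade, also came late. It lies at chr2:84765387-84775444 on the minus strand. Undifferentiated cells had 0, 2 and 0 counts in the naloxone, DAMGO and NC libraries, and day 2 cells had 2, 3 and 5. Day 4 cells had 1, 3 and 5 counts, and day 8 cells had 90, 53 and 43. Every day 8 library lay above every other library. Mean levels were 9.28 ± 1.29 CPM at day 8 and 0.117 ± 0.203 CPM in undifferentiated cells, a ratio of 77.9 (95% counting interval 21.3 to 648). The log2 change was 6.05 ± 0.60 against undifferentiated cells (adjusted p = 5.69e-06) and 3.99 ± 0.47 against day 4 (adjusted p = 4.45e-05). The change against undifferentiated cells was past the threshold in each repeat, at 8.81 without the undifferentiated DAMGO library and 4.71 with the passage 8 library added as an NC library. At day 2 and day 4 the changes of 1.85 ± 1.01 and 2.06 ± 1.02 were not past the threshold (adjusted p = 0.124 and 0.104). Without the undifferentiated DAMGO library, which holds the only 2 counts of its stage in the drug experiment, both were past it (4.62, adjusted p = 0.0354, and 4.82, adjusted p = 0.0336), and limma-voom and limma on log2(TPM + 0.1) called both as well. With the passage 8 library added they were 0.49 (adjusted p = 0.635) and 0.68 (adjusted p = 0.533).

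Vcam1, a cell surface ligand for the integrin that Itga4 and Itgb1 encode, was the early gene of the set. It lies at chr3:116109949-116129688 on the minus strand. Undifferentiated cells had 38, 52 and 56 counts in the naloxone, DAMGO and NC libraries, and day 2 cells already had 1422, 929 and 1088. Day 4 cells had 1659, 1308 and 1840 counts and day 8 cells had 2658, 2325 and 1900. Undifferentiated and day 2 libraries overlapped no other stage in CPM, and day 4 and day 8 libraries lay close together. From an undifferentiated mean of 9.01 ± 2.39 CPM, the stage means went on with 167 ± 11.0 (day 2), 304 ± 1.64 (day 4) and 357 ± 44.1 CPM (day 8). The pooled ratio of day 2 over undifferentiated cells was 18.9 (95% counting interval 16.0 to 22.5). Vcam1 rose at day 2 (log2 change 4.23 ± 0.16, adjusted p = 9.46e-09), at day 4 (5.09 ± 0.16) and at day 8 (5.32 ± 0.16, adjusted p = 8.24e-10) against undifferentiated cells. The step at day 4 against day 2 was smaller (0.86 ± 0.12, adjusted p = 0.000387), and day 8 did not differ from day 4 past the threshold (0.23 ± 0.12, adjusted p = 0.116). These last 2 calls depend on scaling: with a trend on GC content and transcript length removed across libraries the day 4 step was 0.26 (adjusted p = 0.179) and the day 8 step 1.23 (adjusted p = 3.08e-05), and over all alternatives the day 8 step ran between -0.17 and 1.23. An antisense gene, Gm43109, shares 61 of the 8870 exonic bases of Vcam1, and the kit does not mark strand.

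Icam1 and Ccl2, 2 other genes known to answer NF-kappaB, were barely detected. Icam1 encodes a ligand of leukocyte integrins and lies at chr9:21015985-21028817 on the plus strand. Over all 14 libraries it had 19.9 counts, with 6 libraries at 0 and at most 4 counts in any library. Undifferentiated cells had 4, 3 and 2 counts in the naloxone, DAMGO and NC libraries, the day 2 and day 4 NC libraries had 1 each with none in the other 4 libraries of those days, and day 8 cells had 3.87, 4 and 0. An antisense gene, Gm47079, overlaps 11.7% of its exonic bases, so even these reads may not be Icam1. Ccl2, a chemokine that attracts monocytes, lies at chr11:82035571-82037453 on the plus strand. It had 25 counts in all, with 5 libraries at 0, among them all 3 of day 4. The most were the 5 counts in each of the passage 13 and passage 8 libraries, and day 8 cells had 2, 0 and 2 counts against 2, 4 and 0 in undifferentiated cells. Fitted without the filter, neither Icam1 nor Ccl2 passed the threshold in any comparison of stages (20255 genes tested). Counting intervals alone excluded 1 for Icam1 at day 2 over undifferentiated cells (ratio 0.0892, 0.00203 to 0.644) and at day 4 (0.115, 0.00263 to 0.832), on 1 count against 9 in each case. For Ccl2 at day 4, 0 counts against 6 gave an interval with an upper limit of 0.881. These intervals leave out the spread between libraries, and with it the adjusted p-values of these 3 comparisons from edgeR were 0.0866, 0.146 and 0.137.

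Serpina3n shared the late timing of C3. It lies at chr12:104406729-104414329 on the plus strand, within a cluster of related serpin genes. Undifferentiated cells had 0, 1 and 3 counts in the naloxone, DAMGO and NC libraries, and day 2 cells had 2, 0 and 0. Day 4 cells had 9, 5 and 4 counts, and day 8 cells had 568, 426 and 326. All day 8 libraries exceeded all others, and the day 4 libraries lay above the day 2 and undifferentiated ones in CPM by a small margin. Stage means were 0.261 ± 0.313 (undifferentiated), 0.0839 ± 0.145 (day 2), 1.16 ± 0.497 (day 4) and 67.2 ± 6.24 CPM (day 8). The pooled ratio of day 8 over undifferentiated cells was 276 (95% counting interval 108 to 1015). The log2 change was 7.99 ± 0.39 at day 8 against undifferentiated cells (adjusted p = 2.20e-08) and 5.85 ± 0.31 against day 4 (adjusted p = 2.18e-07). Day 4 was higher than day 2 (3.30 ± 0.87, adjusted p = 0.0104) and than undifferentiated cells (2.15 ± 0.78, adjusted p = 0.0345). The call against undifferentiated cells, on 18 day 4 counts, was lost on leaving out any of 5 libraries, with log2 changes of 1.51 without undifferentiated naloxone, 1.90 without undifferentiated DAMGO, 1.77 without day 4 naloxone, 2.19 without day 4 DAMGO and 2.12 without day 8 DAMGO (adjusted p = 0.05004 to 0.123). Without the undifferentiated NC library, with 3 of the 4 undifferentiated counts, it was 3.54 at day 4 and 9.38 at day 8, without the undifferentiated naloxone library the day 8 change was 7.36, and the day 4 change against day 2 was 5.75 without the day 2 naloxone library. The 6 related genes Serpina3c, Serpina3f, Serpina3g, Serpina3i, Serpina3k and Serpina3m had at most 5.67 counts each over the 14 libraries, so few reads were given to these relatives.

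Lcn2, the other secreted protein of reactive astrocytes here, had counts at day 8 alone. It lies at chr2:32384633-32388252 on the minus strand. The naloxone, DAMGO and NC libraries of day 8 had 2, 6 and 5 counts, and the other 11 libraries had 0. The mean at day 8 was 0.737 ± 0.436 CPM, at least 3.63-fold higher than in undifferentiated cells if those are given 3 counts over their 3 libraries. Fitted without the filter on low counts, Lcn2 was past the threshold at day 8 against undifferentiated cells (adjusted p = 0.0393) and not against day 4 (adjusted p = 0.0507). Per length it reached 1.62 ± 0.954 TPM at day 8, beside 58.7 ± 5.88 TPM for Serpina3n.

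Tlr4, the lipopolysaccharide receptor, ran the other way. The gene lies at chr4:66827584-66930284 on the plus strand. Undifferentiated cells had 26, 12 and 14 counts in the naloxone, DAMGO and NC libraries, and day 2 cells had 0, 0 and 1. Day 4 cells had 2, 1 and 1 counts, and day 8 cells had 2, 1 and 2. Counted with the passage 13 and passage 8 libraries, the 9 differentiating libraries spanned 0 to 0.375 CPM and the 5 undifferentiated libraries 2.11 to 5.60 CPM, without overlap. Mean levels were 0.261 ± 0.103 CPM at day 8 and 3.15 ± 1.22 CPM in undifferentiated cells. The level in undifferentiated cells was 64.8 times that of day 2 (95% counting interval 11.1 to 2608), which rests on 1 count, and 12.4 times that of day 8 (4.99 to 39.8). Tlr4 fell at day 2 (log2 change -5.55 ± 0.61, adjusted p = 1.87e-05), at day 4 (-3.56 ± 0.50, adjusted p = 0.000122) and at day 8 (-3.56 ± 0.47, adjusted p = 4.73e-05), and it passed no threshold between the differentiating stages. The day 2 change was -7.33 without the day 2 NC library, which holds its 1 count, and -4.71 without the day 2 naloxone library.

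Set against each other, the rises had different clocks. In CPM, Vcam1 stood at 46.9% of its highest stage mean by day 2 and at 85.0% by day 4. C4b stood at 0.905% and 9.35% of its highest mean at those days, and Serping1 at 5.43% and 6.12%. Serpina3n stood at 0.125% and 1.72%, and C3 at 0.0541% and 0.205%. The highest stage of Vcam1 depends on the unit. In TPM it was day 4, at 206 ± 0.663 TPM against 183 ± 21.4 TPM at day 8. Day 2 therefore called 2 rises and 1 fall among the members, where 33.7% of all genes rose and 35.9% fell. Day 4 called 3 rises and 1 fall against undifferentiated cells, where 31.4% of genes rose and 31% fell. Between consecutive stages, 3 members rose and none fell at day 4 against day 2 (27.1% of genes rose and 24.8% fell), and 4 rose and none fell at day 8 against day 4 (37.1% rose and 31.5% fell). The 4 were C3, C4b, Serping1 and Serpina3n.

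**Figure D2:**
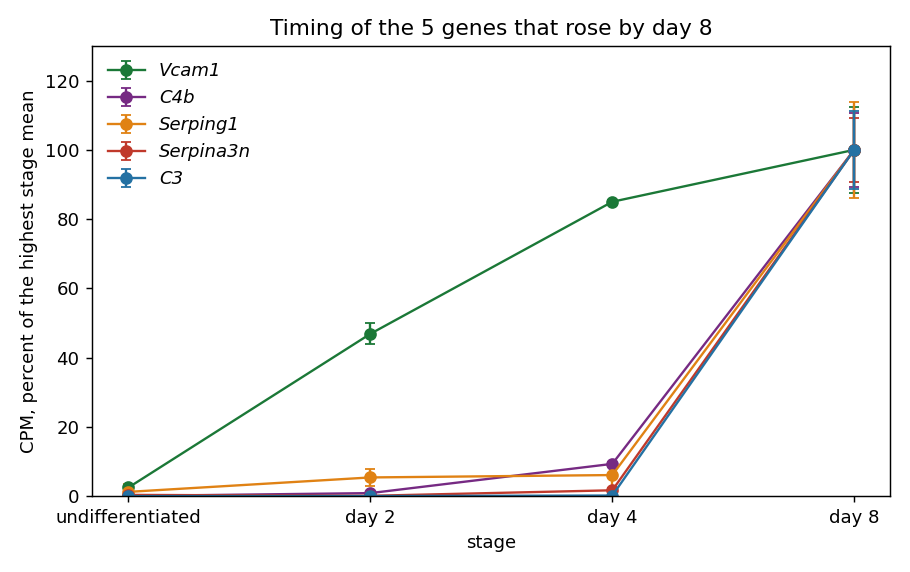
Mean CPM of each of the 5 genes that rose by day 8, as a percentage of its highest stage mean, against stage (bars, SD over the 3 libraries of a stage). Vcam1 reaches 46.9% at day 2, whereas C3 and Serpina3n are below 2% until day 8.

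Levels of different genes compare only per length, in TPM as deposited. At day 8, Vcam1 had 183 ± 21.4 TPM and C4b 160 ± 20.1 TPM, with overlapping libraries (163 to 206 and 145 to 183 TPM). C3 followed at 90.7 ± 12.3 TPM, Serpina3n at 58.7 ± 5.88 TPM and Serping1 at 10.3 ± 1.76 TPM, each below the gene before it in every library. Lcn2 (1.62 ± 0.954 TPM), Ccl2 (0.517 ± 0.477 TPM), Icam1 (0.267 ± 0.244 TPM) and Tlr4 (0.143 ± 0.0379 TPM) came last, and their libraries overlapped in part. In undifferentiated cells the order began with Vcam1 (5.34 ± 1.42 TPM) and Tlr4 (1.58 ± 0.671 TPM), and the other 7 genes averaged under 1 TPM. At day 4, Vcam1 stood at 206 ± 0.663 TPM and C4b at 19.997 ± 2.06 TPM, ahead of Serpina3n and Serping1 at 1.33 ± 0.570 and 0.993 ± 0.395 TPM, which overlapped.

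The drug comparisons ask whether blocking or activating opioid receptors moved these genes in common over the 4 stages. An effect limited to 1 stage is not tested by them and partly enters their residual, since each drug has 1 library per stage. No member passed the threshold for naloxone against NC, for DAMGO against NC or for naloxone against DAMGO, and 0% of all genes did in each. Both drugs are set against the same NC libraries. At an unadjusted p under 0.05, naloxone against NC had 1333 genes, DAMGO against NC had 315 and naloxone against DAMGO had 229, with no member among them. For naloxone against NC over the 4 stages, log2 changes were 0.04 ± 0.27 for C3, 0.11 ± 0.12 for C4b, -0.07 ± 0.43 for Serping1, -0.09 ± 0.11 for Vcam1, 0.21 ± 0.30 for Serpina3n and 0.40 ± 0.44 for Tlr4 (adjusted p = 0.699 to 0.970). For DAMGO against NC they ran between -0.53 ± 0.50 for Tlr4 and 0.25 ± 0.30 for Serpina3n (adjusted p = 0.952 to 0.99990). C3, Serping1, Serpina3n and Tlr4 had near-zero counts at some stages, and their SE of 0.27 to 0.50 leave drug effects of that size undetectable.

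Within day 8, where counts were high, the single libraries differed by little. C3 had 288 CPM in the naloxone library, 233 in the DAMGO library and 246 in the NC library. The ratio to NC was 1.17 for naloxone (95% counting interval 1.10 to 1.25) and 0.946 for DAMGO (0.876 to 1.02). C4b had 446, 394 and 361 CPM, a ratio of 1.24 for naloxone (1.17 to 1.31) and 1.09 for DAMGO (1.03 to 1.16). Serping1, on fewer counts, had 10.6, 9.16 and 8.06 CPM. Its ratios were 1.32 for naloxone (0.907 to 1.94) and 1.14 for DAMGO (0.746 to 1.74), with 1 inside both intervals. C3, C4b and Serping1 were thus highest in the naloxone library, which was also the deepest library of all. Vcam1 had 314 CPM with naloxone, 402 with DAMGO and 356 in NC cells. It was lowest with naloxone (ratio 0.881, 0.830 to 0.935) and highest with DAMGO (ratio 1.13, 1.06 to 1.20). Serpina3n had 67.0, 73.6 and 61.1 CPM, with ratios of 1.10 (0.956 to 1.26) for naloxone and 1.21 (1.04 to 1.40) for DAMGO. These intervals cover counting error alone, and the spread between replicate libraries of 1 condition is unknown.

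**Figure D3:**
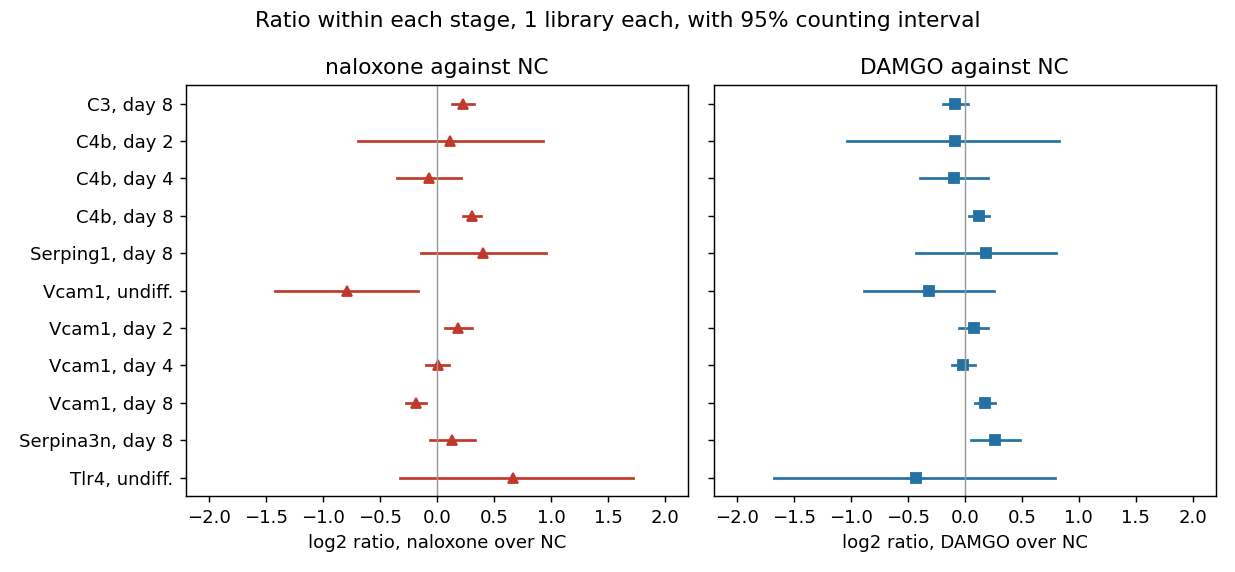
Log2 ratio of a drug library over the NC library of the same stage, naloxone at left and DAMGO at right, for the 11 pairs of gene and stage with at least 20 counts in drug and NC libraries together (bars, 95% counting interval, 1 library each). At day 8 all points lie within 0.881 to 1.32 times NC, and the undifferentiated ratios of Vcam1 and Tlr4 have wide intervals.

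In undifferentiated cells Vcam1 had 6.57 CPM with naloxone, 9.13 with DAMGO and 11.3 in NC cells, a ratio of 0.579 for naloxone over NC (95% counting interval 0.373 to 0.891). At day 2 that ratio was 1.14 (1.05 to 1.23) and at day 4 it was 1.00 (0.938 to 1.07). A model that lets the drug effect differ between differentiating and undifferentiated cells called no gene for naloxone and none for DAMGO (0% each; 226 and 211 genes at an unadjusted p under 0.05). Vcam1 and Serpina3n were among the 226, with differences in naloxone effect of 0.79 ± 0.28 and 5.24 ± 2.21 on the log2 scale. Neither held after adjustment over all genes with edgeR (adjusted p = 1). For Serpina3n that value rests on 0 against 3 undifferentiated counts.

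The reference libraries place the undifferentiated levels. With 1 library each, they allow no test. Vcam1 had 54 counts at passage 13 and 55 at passage 8, or 7.37 and 9.06 CPM, a ratio of 0.814 (95% counting interval 0.549 to 1.21). Tlr4 had 41 and 23 counts, or 5.60 and 3.79 CPM, a ratio of 1.48 (0.866 to 2.58). Both intervals included 1, and 1.52% of the 11617 genes with at least 20 counts in a library were past 2-fold between these passages. The other 7 genes had 0 to 6 counts in each reference library. Undifferentiated NC cells over the passage 8 reference gave 1.25 for Vcam1 (0.847 to 1.85) and 0.748 for Tlr4 (0.356 to 1.52), where 2.05% of 11424 genes were past 2-fold.

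Around C3 and C4b, the rest of the cascade was patchy. The list of complement cascade genes has 30 genes in the files, of which 10 had no count and 11 were tested. At day 8 against undifferentiated cells 7 rose and 1 fell, with a median log2 change of 1.56 beside 0.05 over all genes. At day 4, 2 rose and 1 fell, and at day 2, 4 rose and 0 fell. Of all genes tested, 41.6% rose and 38.5% fell at day 8, 31.4% and 31% at day 4, and 33.7% and 35.9% at day 2. Of the 7 rises, 4 (C1ra, C1s1, C3 and Hc) had means below 1 CPM at every other stage and passed the filter on low counts through day 8. The same holds for genes of the lists below, so the counts and medians over tested genes describe these genes and set no list apart. Besides C3 and C4b the rises were C4a and 4 genes of low level, of which the following 3 are named after their values were seen. The classical pathway proteases C1ra and C1s1 averaged 3.36 and 3.57 CPM at day 8, against 0.116 and 0 CPM in undifferentiated cells, and Hc, which encodes C5, averaged 3.95 CPM against 0.0585 CPM. Masp1, a protease of the lectin pathway, fell to 12.2 ± 0.848 CPM at day 8, against 44.9 ± 1.31 CPM in undifferentiated cells (log2 change -1.88 ± 0.10, adjusted p = 6.44e-08). Before that its mean was 84.5 ± 4.90 CPM at day 2 and 27.2 ± 2.34 CPM at day 4. C2 did not pass the threshold at day 8 (0.458 CPM against 0.349 CPM), but it averaged 8.02 CPM at day 2 and 0.764 CPM at day 4. The 3 chains of C1q had no count in any library.

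Among complement regulators and receptors, 25 genes are in the files, 4 had no count and 12 were tested, and 7 rose and 2 fell at day 8 (median log2 change 4.26), against 4 and 1 at day 4. Over all genes tested, 41.6% rose and 38.5% fell at day 8, and 31.4% rose and 31% fell at day 4. Of the 7 rises, 4 were below 1 CPM at every other stage (Serping1, Cfi, Cd59a and Cd59b). Clu, which encodes clusterin, an inhibitor of the terminal complex and an astrocyte product, reached 3805 ± 258 CPM at day 8, against 3.25 ± 1.20 CPM in undifferentiated cells. Csmd1, a membrane regulator of C3 and C4 cleavage products, reached 108 ± 2.94 CPM against 4.07 ± 0.196 CPM and was already at 106 ± 10.6 CPM at day 4. Cd93 fell to 1.60 ± 0.572 CPM, against 52.6 ± 2.06 CPM in undifferentiated cells, and Susd4 fell by 0.62 ± 0.15 on the log2 scale. The receptors for the C3a and C5a fragments, C3ar1, C5ar1 and C5ar2, had no count.

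**Figure D4:**
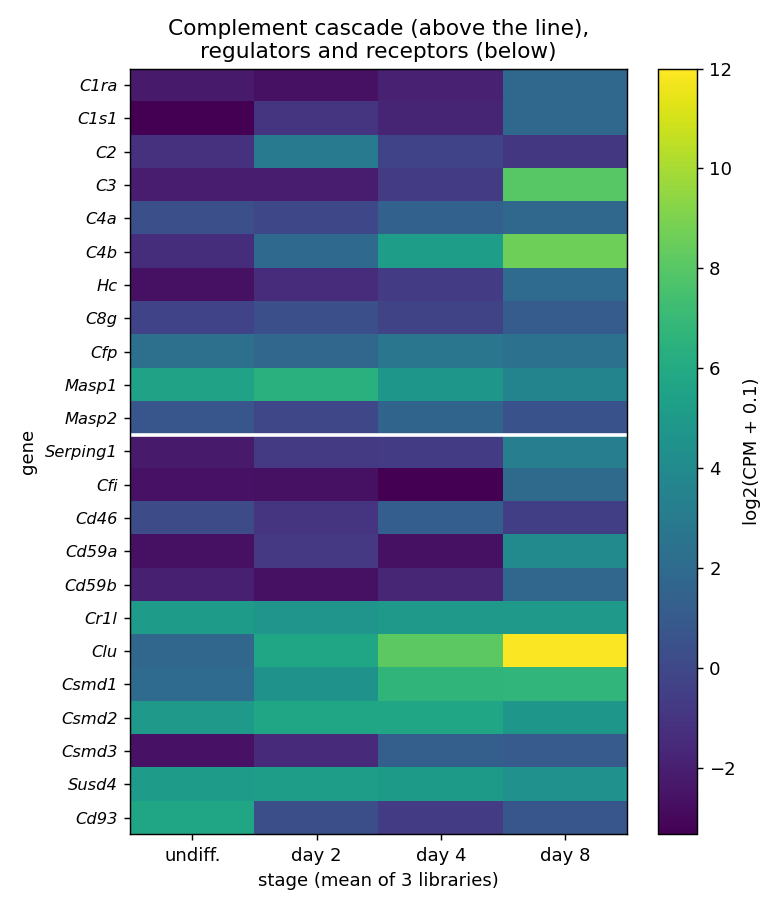
Mean level of the 23 complement genes tested as log2(CPM + 0.1), by stage (columns, mean of 3 libraries; rows, 11 cascade genes above the white line and 12 regulators and receptors below). C3, C4b and Clu stand out at day 8, and Masp1 and Cd93 are highest before it.

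Reactive astrocyte genes changed before day 8 in both directions and by day 8 mostly upwards. In the pan-reactive list, all 13 genes had counts, 11 were tested, and 3 rose and 3 fell at day 2, 4 rose and 4 fell at day 4 and 9 rose and 1 fell at day 8, where 41.6% of all genes rose and 38.5% fell. Of the 9 rises, 3 were below 1 CPM at every other stage (Steap4, Cxcl10 and Aspg). Its median log2 change was 7.99 at day 8, or 5.40 with the 2 genes that lacked undifferentiated counts at their lower bound. Gfap, the intermediate filament of astrocytes, reached 8776 ± 321 CPM at day 8, against 2.34 ± 1.68 CPM in undifferentiated cells. S1pr3, a sphingosine phosphate receptor, reached 457 ± 17.3 CPM against 0.116 ± 0.101 CPM, and Aspg, an asparaginase, 22.8 ± 1.93 CPM against no count. Cp, the copper protein ceruloplasmin, fell to 10.1 ± 2.68 CPM against 26.3 ± 4.69 CPM. Gfap and Vim are also made by astrocytes that are not reactive.

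The set associated with lipopolysaccharide, which includes C3 and Serping1, had 9 of 12 genes tested, with 7 rises and 1 fall at day 8 (median 2.85) and 2 of each at day 4. For this set and the next, 41.6% of all genes rose and 38.5% fell at day 8. At day 4 the shares were 31.4% and 31%. Its rises below 1 CPM at every other stage were 3, Serping1, Psmb8 and C3. Gbp2, an interferon-inducible GTPase, reached 73.4 ± 8.74 CPM at day 8, against 0.561 ± 0.234 CPM in undifferentiated cells, and Ggta1, a galactosyltransferase, 33.3 ± 2.31 CPM against 1.41 ± 0.894 CPM. Fkbp5, an immunophilin induced by glucocorticoids, fell to 17.6 ± 1.76 CPM, against 72.7 ± 2.95 CPM. The set associated with ischemia had 11 of 13 genes tested, with 8 rises and 1 fall at day 8 (median 1.34), against 2 and 3 at day 4, and 3 of the 8 rises were below 1 CPM at every other stage (Clcf1, Tgm1 and Cd14). Tm4sf1 reached 89.0 ± 5.62 CPM against 1.67 ± 0.515 CPM, Emp1 42.5 ± 0.541 CPM against 0.967 ± 0.136 CPM, and B3gnt5, a glycosyltransferase, fell to 8.88 ± 4.87 CPM against 71.4 ± 2.68 CPM. Genes of both sets thus rose at day 8.

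Vcam1 was the 1 rise among the adhesion genes tested at day 8. Of 19 adhesion molecules and integrins in the files, 5 were tested, and 2 rose and 3 fell at day 2 and at day 4, and 1 rose and 4 fell at day 8 (median log2 change -1.44). Among all genes tested, 33.7% rose and 35.9% fell at day 2, 31.4% and 31% at day 4, and 41.6% and 38.5% at day 8. Alcam, an adhesion molecule named after its values were seen, averaged 52.4 CPM in undifferentiated cells, 85.9 CPM at day 2, 156 CPM at day 4 and 27.3 CPM at day 8. Itga4, the integrin chain that binds Vcam1, fell to 0.306 ± 0.178 CPM at day 8, against 114 ± 5.47 CPM in undifferentiated cells, and its partner Itgb1 fell to 320 ± 41.5 CPM against 862 ± 13.4 CPM. Ligand and integrin chains thus moved in opposite directions. Of 23 chemokines in the files, 9 had no count and 4 were tested, and 2 rose and 1 fell at day 8 (median 0.33). Ccl25 was the fall, at 3.86 ± 0.868 CPM against 6.11 ± 0.827 CPM.

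Most Toll-like receptors and adaptors tested were higher at day 8, when Tlr4 was low. Among 24 Toll-like receptors and adaptors, 11 were tested, and 8 rose and 2 fell at day 8 (median log2 change 1.40). At day 2 the list had 4 rises and 2 falls, and at day 4 it had 2 rises and 4 falls. For day 8 against day 4, 8 rose and 1 fell. Of all genes tested, 41.6% rose and 38.5% fell at day 8, 33.7% and 35.9% at day 2, and 31.4% and 31% at day 4. The shares for day 8 against day 4 were 37.1% and 31.5%. Irak2, a kinase of this pathway, reached 36.8 ± 3.74 CPM at day 8, against 0.738 ± 0.0623 CPM in undifferentiated cells. Myd88, the adaptor of most Toll-like receptors, reached 12.7 ± 1.04 CPM against 3.31 ± 0.748 CPM, and Tlr3, a receptor for double-stranded RNA, 18.0 ± 5.89 CPM against 5.28 ± 0.705 CPM. Of 22 NF-kappaB subunits, inhibitors and cytokine targets, 15 were tested, and 10 rose and 3 fell at day 8 (median 0.93), beside the same 41.6% and 38.5% of all genes. Among those with a mean of at least 5 CPM the largest rises were in Nfkbie, Relb and Nfkb2, with log2 changes of 1.92, 1.84 and 1.80. The falls were Chuk (-1.43), Nfkbiz (-0.63) and, below that mean, Rel (-1.56). Traf1, below that mean, averaged 9.79 CPM at day 8 against no count in undifferentiated cells. Il6, Tnf and Il1b, cytokines known to induce several of the 9 genes, had no count in the 14 libraries.

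Receptors for inducing cytokines changed in both directions, with 9 rises and 3 falls among 14 tested at day 8 (median 0.50), against 4 and 7 at day 4. Over all genes tested, 41.6% rose and 38.5% fell at day 8, and 31.4% rose and 31% fell at day 4. Osmr, the oncostatin M receptor, reached 73.0 ± 7.08 CPM at day 8, against 0.115 ± 0.200 CPM in undifferentiated cells, and Il1r1, the interleukin-1 receptor, 29.3 ± 1.95 CPM against 0.423 ± 0.433 CPM. Il1rap, the chain that Il1r1 needs to signal, fell to 4.79 ± 1.11 CPM against 126 ± 6.79 CPM. Among serpins, 9 of the 20 in the files were tested, and 6 rose and 2 fell at day 8 (median 2.14), beside the same day 8 shares of all genes. Serpina3n had the largest rise of those with a mean of at least 5 CPM, followed by Serpinb6a and the collagen chaperone Serpinh1.

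Some genes had profiles very like those of the members over the 12 libraries, which share their stages, so the coefficients describe common timing and carry no test. By Pearson correlation of log2(CPM + 0.5) over 11187 genes, C3 was nearest to Ccdc74a (r = 0.993) and Aspg (0.992). C4b was nearest to Slc14a1, a urea transporter (0.997), and Il6st, the shared signalling chain of the interleukin-6 family (0.997). Serping1 was nearest to Prrx2 (0.991) and Igfbp7 (0.987), and Serpina3n to Fas, a death receptor (0.994), and Srxn1, a sulfiredoxin (0.994). Vcam1 was nearest to Pla2g7 (0.995) and to Oprl1, the nociceptin receptor (0.995), which reached 29.5 CPM at day 8, against 1.84 CPM in undifferentiated cells. Tlr4 was nearest to Scml4 (0.970) and Fzd1 (0.969).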

How the data were processed

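RNA of 14 libraries was sequenced after Trizol extraction and preparation with the Illumina TruSeq RNA kit, per the labels' protocols. Per the submitters' processing notes, Bowtie, RSEM and the mm10 build were used, while their versions, settings and the annotation release are not stated there or in the labels. Per the file headers, the authors deposited 3 values for each of 29713 genes, namely expected count, TPM and FPKM. The expected counts are not whole for 10.4 to 13.1% of genes, since RSEM divides shared reads, and were rounded to whole numbers for the tests. The deposited FPKM were not used in any comparison. Of the gene identifiers, 29202 had a symbol in the reference table, and positions came from GENCODE M21 of the same build.

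Tests were edgeR quasi-likelihood tests with TMM scaling and the filterByExpr filter (13144 genes) on 12 libraries, with stage and treatment as additive terms (6 residual degrees of freedom), with Benjamini-Hochberg adjustment and a threshold of 0.05. The residual spread therefore mixes library noise with stage-specific drug effects. A model with an interaction (4 residual degrees of freedom) tested drug effects by differentiation. Ratios come from pooled counts with an exact conditional binomial 95% interval, and intervals and floors cover counting error only. Alternatives were DESeq2 size factors, limma on log2(TPM + 1) or log2(TPM + 0.1), no filter beyond 1 count, DESeq2, limma-voom, GC content and length trends taken out within stages or across libraries, stage alone, the passage 8 reference counted as a further NC library, drug fits without day 2 or on differentiating libraries only, and omission of each library in turn. The code was tested on simulated counts.

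The 9 genes and the 11 gene lists were chosen with earlier results of these data known. Named list genes are the 3 genes that rose most and the 3 that fell most, past the threshold, at day 8 with a mean of at least 5 CPM, beside C4a and, for likeness, the 2 nearest genes with predicted names left out. The comparison of protein sequences was not made. The summed level of the microglia and macrophage markers is not reported here. Python 3.11.15 with scipy 1.17.1, Biopython 1.88 and matplotlib 3.10.9 was used beside edgeR 4.0.16, DESeq2 1.42.0, limma 3.58.1 and mgcv 1.9.3 in R 4.3.3.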

Additional observations from a re-analysis of the deposited data

How the results depend on the processing

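No member change reversed in direction past the threshold under any alternative. Of 543 member values under other settings, 535 stayed on their side of the threshold, 1 lost its call and 7 gained one. Of 696 values with a library left out, 688 stayed on their side of the threshold, 5 lost and 3 gained a call. Changes short of the threshold in both fits count as staying even where their sign differed. For C3 at day 2 against undifferentiated cells, 0.21 became -0.59 without the day 2 NC library. The calls that moved were those of C3, Serping1 and Serpina3n at low counts and the late steps of Vcam1, given beside each gene. The number of members called stayed within 1.5 times in all 91 and 116 repeats. Counts of genes called were 0 for each drug comparison, with these exceptions. With a library left out they ran between 0 and 2 for DAMGO against NC and between 0 and 2 for naloxone against DAMGO, the 2 in both cases without the day 8 DAMGO library. For the naloxone effect by differentiation, limma on log2(TPM + 0.1) called 6 genes and DESeq2 called 2, and for the DAMGO effect by differentiation limma on log2(TPM + 0.1) called 9. The cause was not tested. The drug comparisons were matched by stage, with 1 library of each treatment per stage. No finer pairing was possible because each condition has 1 library and carries no replicate number of its own. Fits with an interaction could not be estimated for a drug without its undifferentiated library or the undifferentiated NC library. Depth limits Icam1, Lcn2 and Ccl2, which hold 19.9, 13 and 25 counts over 14 libraries, and Tlr4 after differentiation.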
